A study of Mus musculus with 16 samples.

Results

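The genes described here are 10 imprinted genes that set growth in the embryo: Mest, Igf2, H19, Peg3, Dlk1, Cdkn1c, Plagl1, Grb10, Meg3 and Igf2r. They are 10 of the 56941 genes in the count table, and 9 of them passed the filter on low counts that left 16306 genes for testing; Igf2 did not. The set was chosen by name around Mest, which was picked because its difference between palmitate and BSA was among the largest falls in these data. Values of the 10 genes in palmitate against BSA are therefore a description, with no test. The tests below are of palmitate + IL-1β against IL-1β, whose 8 libraries were not in the contrast on which Mest was picked. Contrasts of IL-1β were tested too, and each shares 4 libraries with that contrast. The members were chosen with earlier results of these data known, so no test below is fully apart from the choice.

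An imprinted gene is read from the copy inherited from 1 parent. The parental copies of its region differ in marks, mostly DNA methylation, that were laid down in the germ line. Genes read from the paternal copy, such as Igf2, Mest, Peg3, Dlk1 and Plagl1, mostly promote growth of the embryo, while genes read from the maternal copy, such as H19, Cdkn1c, Meg3, Igf2r and, in most tissues, Grb10, mostly restrain it. Many of them are abundant in the embryo and decline together after birth, and in the adult some remain active in fibroblasts, fat and muscle. Gene counts add up the parental copies and do not tell them apart.

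The cells were primary murine gingival fibroblasts (mGF), the matrix-making cells of the gum, grown from the gingiva around the maxillary second molar of wild-type C57Bl6 mice of 3 to 6 months and used at passages 2 to 8. Treatment lasted 24 h. BSA (control) had the vehicle alone, given as 200 μM of a BSA control, BSA being the protein that carries palmitate. IL-1β had the vehicle and 1 ng/mL of this inflammatory cytokine. Palmitate had 200 μM of a complex of BSA with this saturated fatty acid, and palmitate + IL-1β had the complex and the cytokine. Each group had 4 libraries of bulk RNA. The labels do not say whether the 4 came from separate cultures or mice, so p-values measure only the spread between these libraries, which may be technical.

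Libraries held 21234789 to 92752515 reads counted in genes; palmitate replicate 10 was the deepest, and no other was above 35329711. Levels are given in CPM, the counts of a gene scaled to the TMM-adjusted size of its library, and 3 counts, taken as the floor of detection, came to 0.0323 to 0.141 CPM, a limit that covers counting error only. All 9 fibroblast markers passed the filter. They summed to 31600 to 33710 CPM in the libraries without palmitate and to 28470 to 31320 CPM in those with it. In palmitate + IL-1β against IL-1β 5 of them fell, such as Vim and Col1a2, and 1 rose (Pdgfra). Of all tested genes 16.1% fell and 18.9% rose in that contrast. Adipocyte markers (Adipoq, Plin1, Cidec, Lep) never passed 3 counts in any library, nor did the leukocyte genes Adgre1 and Cd3e or the Schwann cell gene Sox10. The 6 epithelial markers summed to 3.67 to 5.12 CPM in the BSA and IL-1β libraries and to 2.01 to 2.92 CPM in the libraries with palmitate. Only Dsp, a desmosome gene, and Cdh1 passed the filter, and in palmitate + IL-1β against IL-1β Dsp fell (log2 fold change -1.07, edgeR adjusted p = 1.24e-06) while Cdh1 was at -0.95 (adjusted p = 0.124). Of the 4 mural cell markers, which summed to 157.0 to 199.5 CPM, Myh11 rose in that contrast (0.36, adjusted p = 8.11e-05) and Cspg4 (-0.32, adjusted p = 0.0221) and Mcam (-0.17, adjusted p = 0.0112) fell. Leukocyte markers summed to 2.04 to 3.28 CPM, endothelial markers to 1.42 to 2.25 CPM and Schwann cell markers to 1.80 to 2.78 CPM. Only 2 leukocyte, 3 endothelial and 2 Schwann cell markers were tested, and 0 of them were called in that contrast. Their sums still kept some groups apart: endothelial sums were 1.75 to 2.25 CPM in BSA and 1.45 to 1.69 CPM with palmitate + IL-1β, and Schwann cell sums were 2.46 to 2.65 CPM with IL-1β and 1.80 to 2.31 CPM with palmitate. The part of any of these lists in the results below was not tested. In bulk RNA, fewer cells of a type and less RNA per cell cannot be told apart.

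To place the 10 genes beside each other, levels were divided by exon length. In BSA, Igf2r, the receptor that carries IGF2 and lysosomal enzymes to the lysosome, stood highest at 68.6 ± 4.37 CPM per kb of exon (SD, n = 4), followed by Grb10, an adaptor that damps the insulin and IGF1 receptors, at 45.4 ± 2.86. Cdkn1c, which encodes the cell cycle inhibitor p57, came next at 10.9 ± 0.422 CPM per kb, followed by the long non-coding RNA Meg3 at 7.70 ± 1.3 and the zinc finger factor Plagl1 at 7.36 ± 0.293. Meg3 and Plagl1 could not be ordered, as their libraries overlapped. Mest, a hydrolase-like protein of the endoplasmic reticulum, was sixth at 4.64 ± 0.187 CPM per kb, and its libraries overlapped with neither neighbour. This place rests on the counts being strand-specific, as 47.7% of its exon bases are shared with Copg2 on the opposite strand.

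The other members lay more than an order of magnitude below. Peg3, a zinc finger factor, was at 0.25 ± 0.0175 CPM per kb, Dlk1, a membrane-bound relative of the Notch ligands that holds back fat cell formation, at 0.220 ± 0.0478, and H19, the non-coding RNA of the Igf2 locus, at 0.140 ± 0.0439. Their libraries overlapped from Peg3 to Dlk1 and from Dlk1 to H19. Igf2, the fetal growth factor, was at the bottom, with 8 counts in all 4 BSA libraries together. Counts of the growth factor and its non-coding partner were thus close to the floor, while the receptor and the adaptor of the same pathway were abundant. For Igf2 this is a lower bound: 58.4% of its exon bases are shared with Gm49394 on the same strand, where reads would go uncounted. Scaled by the longest transcript instead of all exons, Grb10 (83.2 CPM per kb) stood above Igf2r (71.8), and the rest of the order held. In palmitate the mean levels were ordered Igf2r, Grb10, Meg3, Cdkn1c, Plagl1, Mest, Dlk1, Peg3, H19 and Igf2. The mean of Meg3 (5.90 CPM per kb) stood above those of Cdkn1c (4.09) and Plagl1 (3.55), and Mest was down to 0.830. Libraries of Cdkn1c overlapped with those of Meg3 and of Plagl1, and libraries of Peg3 with those of Dlk1 and of H19. These pairs could not be ordered.

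**Figure D1:**
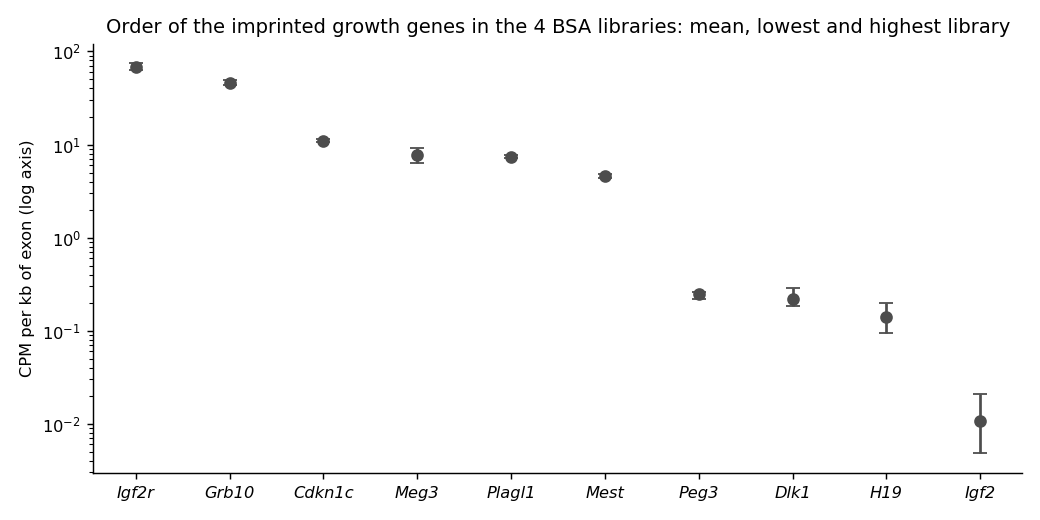
Level of each imprinted growth gene in the BSA libraries, in CPM per kb of exon on a log axis; points are means of 4 libraries and bars run from the lowest to the highest library. Igf2r (68.6) and Grb10 (45.4) lie at the top, Mest (4.64) is sixth, and Igf2 (0.0108) lies at the bottom. Reads on exon bases that Mest and Igf2 share with other genes may have gone uncounted.

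Mest (ENSMUSG00000051855.16) lies on the forward strand at chr6:30723546-30752058 (GRCm39). It reached 38.3, 38.6, 37.5 and 35.3 CPM in the BSA libraries (983 to 1295 counts), and 35.0, 32.4, 33.0 and 34.1 CPM with IL-1β. With palmitate it was at 7.34, 6.46, 5.40 and 7.60 CPM, and with palmitate + IL-1β at 8.10, 7.41, 4.98 and 5.08 CPM (138 to 586 counts over both groups). The 8 libraries with palmitate all lay below the 8 without, with no library between 8.10 and 32.4 CPM. Added to IL-1β, palmitate lowered Mest to 0.192 of its level, a log2 fold change of -2.38 (95% interval -2.62 to -2.14, edgeR's quasi-likelihood test, adjusted p = 3.78e-12). The difference between palmitate and BSA, on which Mest was picked, was -2.50 ± 0.11 (SE), and the gap between both palmitate differences was 0.12 ± 0.16 (SE) on the log2 scale.

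Some of Mest's neighbours share its place in the genome. Its exons span 8070 bases, and 3850 of them (47.7%) are also exons of Copg2, a coatomer subunit gene that runs on the opposite strand at chr6:30741505-30873729. The deposited counts are described as strand-specific. If they were, reads of both genes were kept apart; if not, reads from the shared bases were left uncounted as ambiguous. Copg2 was at 69.1 ± 2.3 CPM in BSA, 63.3 ± 2.4 with IL-1β, 57.5 ± 1.0 with palmitate and 50.0 ± 4.8 with palmitate + IL-1β (SD, n = 4 each). Palmitate added to IL-1β lowered it by a log2 fold change of -0.34 (edgeR adjusted p = 4.51e-06), beside -2.38 for Mest. It was also lower in palmitate + IL-1β than in palmitate (-0.20, edgeR adjusted p = 0.0111), but without palmitate + IL-1β replicate 16, which had the lowest Copg2 (43.1 CPM), this difference was -0.14 (adjusted p = 0.0624).

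An intron of Mest holds the microRNA gene Mir335 (chr6:30741298-30741395, forward strand), which shares no exon base with Mest or Copg2. Its mature arms are shown because they are the product of the Mest transcript that acts on other genes; the seed, bases 2 to 8, which pairs with targets, is in capitals. The sequences are those of RefSeq and match GRCm39 at chr6:30741313-30741335 and chr6:30741353-30741374.
mmu-miR-335-5p: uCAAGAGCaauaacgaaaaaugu
mmu-miR-335-3p: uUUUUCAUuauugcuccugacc
The seeds differ, so the arms would pair with different targets. The libraries do not capture mature microRNAs, and the counts on this row are reads of longer RNA over the hairpin. There were 22, 16, 4 and 9 such counts in the BSA libraries, 6, 9, 5 and 8 with IL-1β, 0, 2, 1 and 1 with palmitate, and 0, 1, 0 and 1 with palmitate + IL-1β. Every library with palmitate thus held fewer counts than any library without it. Mir335 did not pass the filter, so no test was run. Summed over libraries, the rate with palmitate + IL-1β was 0.0602 of that with IL-1β (2 against 28 counts, 95% interval 0.00695 to 0.239, exact Clopper-Pearson). The rate with IL-1β was 0.605 of that in BSA (28 against 51 counts, interval 0.367 to 0.977). Both intervals cover counting error only and leave out the spread between libraries. The BSA libraries (4 to 22 counts) overlapped those with IL-1β (5 to 9), so no difference is read from the second rate. Mir675 in H19, Mir483 in Igf2 and Mir770 in Meg3 had no count in any library. Mir675 and Mir770 share 84 and 94 bases with exons of their hosts on the same strand, where reads would be left uncounted as ambiguous, so nothing is read from their lack of counts.

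**Figure D2:**
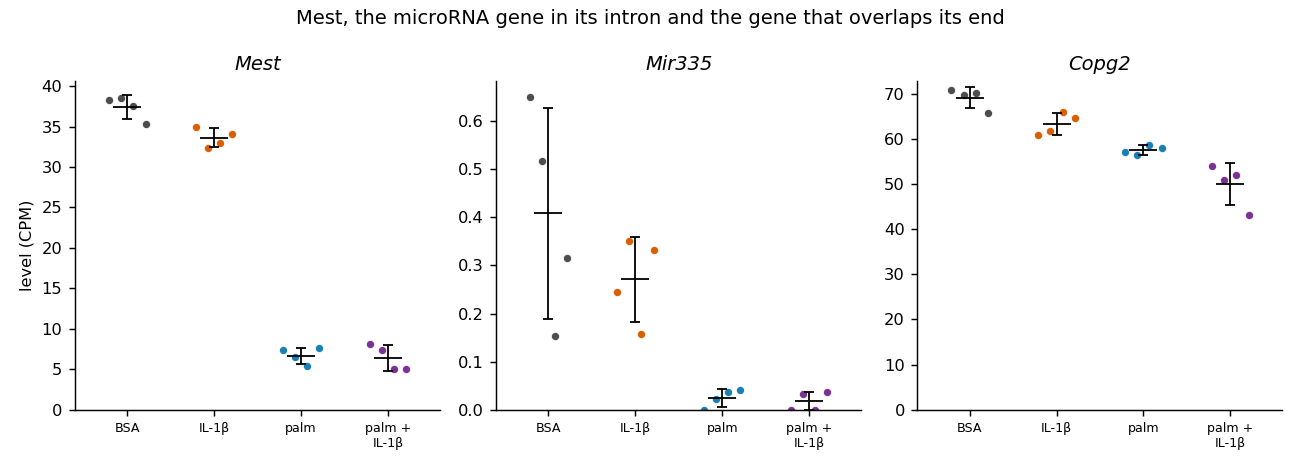
Level in CPM of Mest, of Mir335 in its intron and of Copg2, which overlaps its end on the opposite strand; each point is a library, and bars give the mean and SD of 4 libraries. Mest and Mir335 lie at a small fraction of their BSA level in both palmitate groups, whereas Copg2 stays between 43.1 and 70.7 CPM in every library.

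Cdkn1c (chr7:143012069-143014806, reverse strand) followed Mest most closely in size. It was at 23.1, 23.1, 22.8 and 24.8 CPM in BSA and at 20.3, 22.1, 21.8 and 20.6 with IL-1β. With palmitate it was at 11.6, 9.50, 7.38 and 6.82 CPM, and with palmitate + IL-1β at 7.51, 8.01, 6.82 and 9.61. The palmitate groups lay wholly below the others. Palmitate added to IL-1β lowered Cdkn1c to 0.375 of its level (log2 fold change -1.42, 95% interval -1.66 to -1.18, edgeR adjusted p = 2.92e-09), beside -1.41 ± 0.11 (SE) for palmitate against BSA. Some of its exon bases (29.0%) are shared with Gm44732, a non-coding gene on the opposite strand.

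Plagl1 (chr10:12936248-13007438, forward strand), which is known to bind and activate other imprinted genes, was at 62.0, 66.7, 61.1 and 62.0 CPM in BSA and at 67.7, 62.2, 58.9 and 65.6 with IL-1β. It was at 30.0, 29.5, 30.9 and 31.3 CPM with palmitate and at 29.4, 27.8, 28.8 and 37.9 with palmitate + IL-1β. Palmitate + IL-1β replicate 16 stood above its group, yet still far below every library without palmitate. With IL-1β present, palmitate lowered Plagl1 to 0.486 of its level (log2 fold change -1.04, 95% interval -1.18 to -0.90, edgeR adjusted p = 6.3e-12), and that against BSA was -1.05 ± 0.07 (SE).

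Grb10 (chr11:11880498-11988683, reverse strand) moved less but with little spread. It was at 455, 446, 509 and 452 CPM in BSA, 444.0, 449.9, 453 and 469.8 with IL-1β, 377, 358, 350.1 and 352 with palmitate, and 355, 368, 355 and 351 with palmitate + IL-1β. Its highest palmitate library (377 CPM) was below its lowest library without palmitate (444.0 CPM). Palmitate added to IL-1β lowered Grb10 to 0.787 of its level (log2 fold change -0.35, 95% interval -0.43 to -0.26, edgeR adjusted p = 1.12e-07), beside -0.37 ± 0.04 (SE) for palmitate against BSA.

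Peg3 (chr7:6706882-6733468, reverse strand) was measured at 30 to 230 counts a library. It was at 3.02, 3.36, 3.47 and 3.57 CPM in BSA, 2.99, 2.69, 3.36 and 3.65 with IL-1β, 1.70, 2.54, 2.50 and 1.23 with palmitate, and 2.13, 2.38, 2.44 and 1.55 with palmitate + IL-1β. The groups with and without palmitate did not overlap, though the gap between 2.54 and 2.69 CPM was narrow. Palmitate added to IL-1β lowered Peg3 to 0.673 of its level (log2 fold change -0.57, 95% interval -0.94 to -0.21, edgeR adjusted p = 0.0123). Without palmitate + IL-1β replicate 16 the fold change was -0.46 and the call was lost (adjusted p = 0.0549). Palmitate against BSA gave -0.67 ± 0.17 (SE).

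In palmitate + IL-1β against IL-1β, 5 of the 9 tested members fell (Mest, Cdkn1c, Plagl1, Grb10 and Peg3) and 0 rose, where 16.1% of all tested genes fell and 18.9% rose. The same 5 members were those whose libraries did not overlap between the groups, which held for 31.3% of all tested genes in either direction. The members that fell include genes read from the paternal copy that promote growth (Mest, Plagl1, Peg3) and genes read from the maternal copy that restrain it (Cdkn1c, Grb10). For each of the 5 the exact permutation test of log2 CPM over the 8 libraries gave p = 0.0286, without adjustment. This is the smallest that 4 against 4 allows. Groups that do not overlap always give it, so it adds nothing to the lack of overlap. In palmitate against BSA, the contrast that chose Mest, the fit marked 5 members as lower and 1 as higher (Igf2r), where 17.5% of all tested genes were lower and 19.8% higher; nothing is read from that count. Upper-quartile scaling in place of TMM moved the share of higher genes among all calls in that contrast from 53.1% to 37.1%, and left the fold changes of all 9 members in the same direction.

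**Figure D3:**
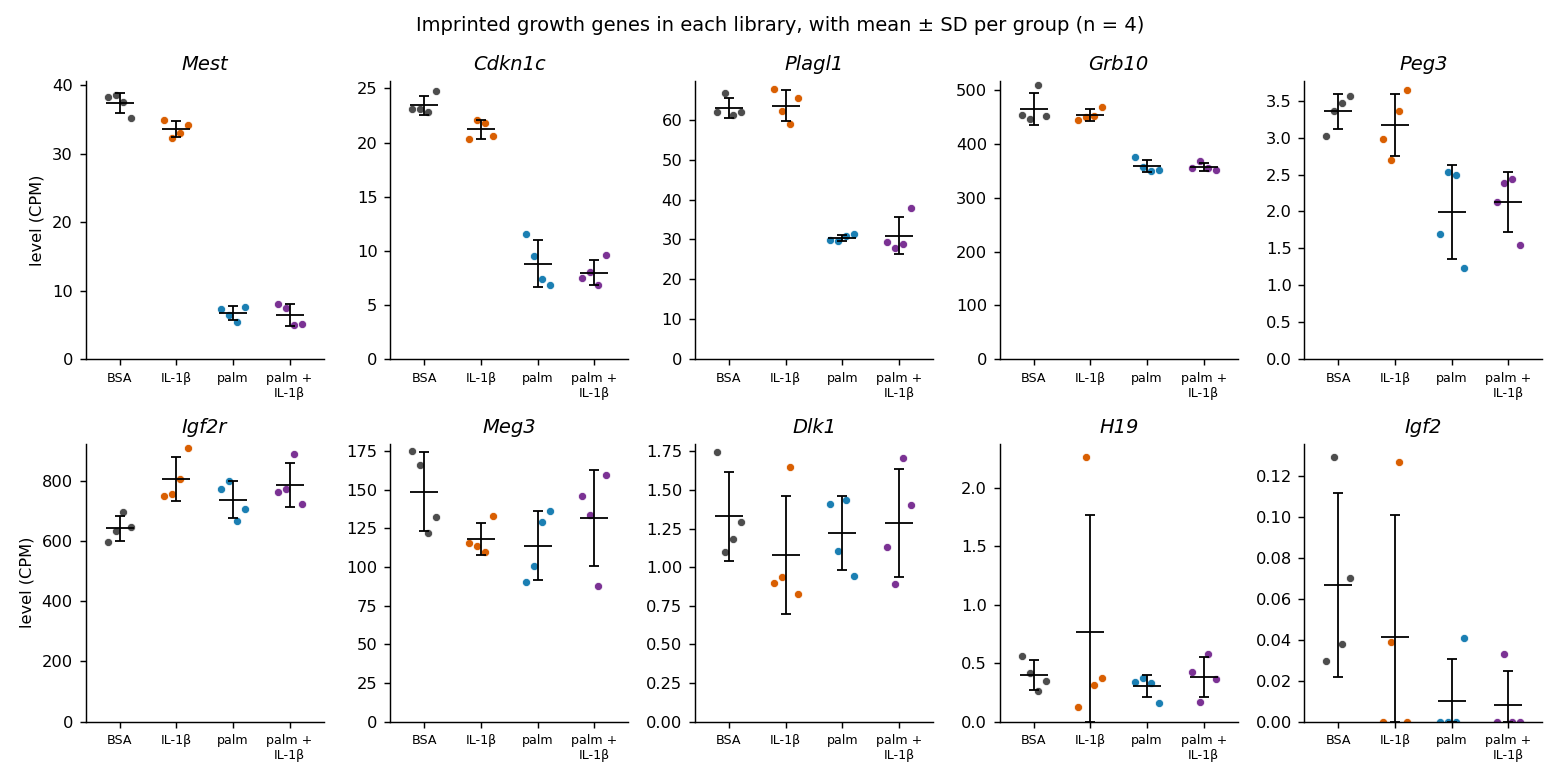
Level in CPM of the 10 imprinted growth genes in each library; each point is a library, horizontal marks are means and bars are the SD of 4 libraries, drawn no lower than 0. For Mest, Cdkn1c, Plagl1, Grb10 and Peg3 every library with palmitate (blue, purple) lies below every library without it (grey, orange), whereas the libraries of Igf2r, Meg3, Dlk1 and H19 overlap.

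The promoters of Mest, Plagl1 and Grb10, 3 of the 5 members that fell, are shown because imprinting marks sit on CpG pairs. Whether such a mark lies in these windows was not tested. Each is the 250 bases before the start of the canonical transcript (GRCm39), 5′ to 3′ on the gene's own strand, with every CpG in capitals. They lie at chr6:30737794-30738043 (Mest, forward), chr10:12966159-12966408 (Plagl1, forward) and chr11:11987420-11987669 (Grb10, reverse).
Mest: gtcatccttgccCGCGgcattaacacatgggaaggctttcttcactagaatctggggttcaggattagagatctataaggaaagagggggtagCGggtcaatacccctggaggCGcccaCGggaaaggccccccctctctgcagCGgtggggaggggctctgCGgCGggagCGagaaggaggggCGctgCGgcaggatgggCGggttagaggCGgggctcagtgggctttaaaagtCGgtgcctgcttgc
Plagl1: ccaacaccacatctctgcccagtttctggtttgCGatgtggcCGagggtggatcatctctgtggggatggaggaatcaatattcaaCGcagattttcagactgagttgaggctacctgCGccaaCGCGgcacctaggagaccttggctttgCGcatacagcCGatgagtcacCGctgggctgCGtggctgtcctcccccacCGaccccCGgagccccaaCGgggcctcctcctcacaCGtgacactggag
Grb10: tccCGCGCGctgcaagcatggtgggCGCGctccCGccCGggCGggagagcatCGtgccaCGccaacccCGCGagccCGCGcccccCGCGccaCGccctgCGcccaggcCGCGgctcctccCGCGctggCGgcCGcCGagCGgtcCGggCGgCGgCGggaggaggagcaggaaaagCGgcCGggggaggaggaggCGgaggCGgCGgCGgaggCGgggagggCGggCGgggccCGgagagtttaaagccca
Mest held 14 CpG in this window, Plagl1 14 and Grb10 40, where the median of 32808 promoters of the same length was 5 (interquartile range 2 to 14). Peg3, which also fell, held 7. Igf2r, Dlk1, H19 and Meg3, which were not called in palmitate + IL-1β against IL-1β, held 26, 23, 12 and 10. Igf2, which was not tested, held 6. The letters GGGGCCCC, the core motif known for Plagl1, which reads alike on both strands, were in 0.896% of all promoters. Of the 9 members whose promoters were read for this, Peg3 alone held them. A match is a run of letters and not a shown site of binding.

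Igf2r was the member that rose with IL-1β. It was at 597, 633, 696 and 645 CPM in BSA and at 748, 757, 805 and 907 with IL-1β, so the groups did not overlap. The rise was to 1.25 times the BSA level (log2 fold change 0.32, 95% interval 0.17 to 0.48, edgeR adjusted p = 0.00569). With palmitate it was at 773, 800.3, 667 and 707 CPM, and with palmitate + IL-1β at 762, 774, 890 and 722. Palmitate added to IL-1β gave a log2 fold change of -0.03 (95% interval -0.19 to 0.12, edgeR adjusted p = 0.782). Airn, the non-coding RNA that silences the paternal Igf2r copy early in development and overlaps the gene on the opposite strand without sharing exon bases, was at 5.05 ± 0.58 CPM in BSA and 5.50 ± 0.77 with IL-1β (SD, n = 4), a log2 fold change of 0.11 (adjusted p = 0.596).

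Against BSA, IL-1β raised 1 of 9 members (Igf2r), where 10.1% of all tested genes rose, and lowered 0, where 4.97% fell. Upper-quartile scaling moved the share of higher genes among all calls here from 67.1% to 43.5%. Mest and Cdkn1c were lower in every IL-1β library than in any BSA library (with Igf2r, 3 members did not overlap, against 17.6% of all tested genes). These differences were small: -0.16 on the log2 scale for Mest (95% interval -0.36 to 0.05, edgeR adjusted p = 0.332) and -0.14 for Cdkn1c (interval -0.36 to 0.07, edgeR adjusted p = 0.411). The exact permutation test gave p = 0.0286 for each before any adjustment, a value that follows from the lack of overlap alone. The BSA libraries were also part of the contrast on which Mest was picked. A lower Mest with IL-1β than in BSA is thus not apart from that choice. Plagl1 (0.01), Grb10 (-0.04) and Peg3 (-0.08) were close to 0 with IL-1β on the log2 scale, with 95% intervals of -0.12 to 0.15, -0.12 to 0.05 and -0.42 to 0.27.

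When IL-1β was added to palmitate, 0 of 9 members passed the edgeR test, where 9.81% of all tested genes did. At an unadjusted p under 0.05 the count was also 0, by edgeR and by DESeq2. Mest differed by -0.04 on the log2 scale (95% interval -0.32 to 0.24) and Cdkn1c by -0.15 (interval -0.41 to 0.10). Among the 9, the interval was narrowest for Grb10 (-0.01, interval -0.10 to 0.08).

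**Figure D4:**
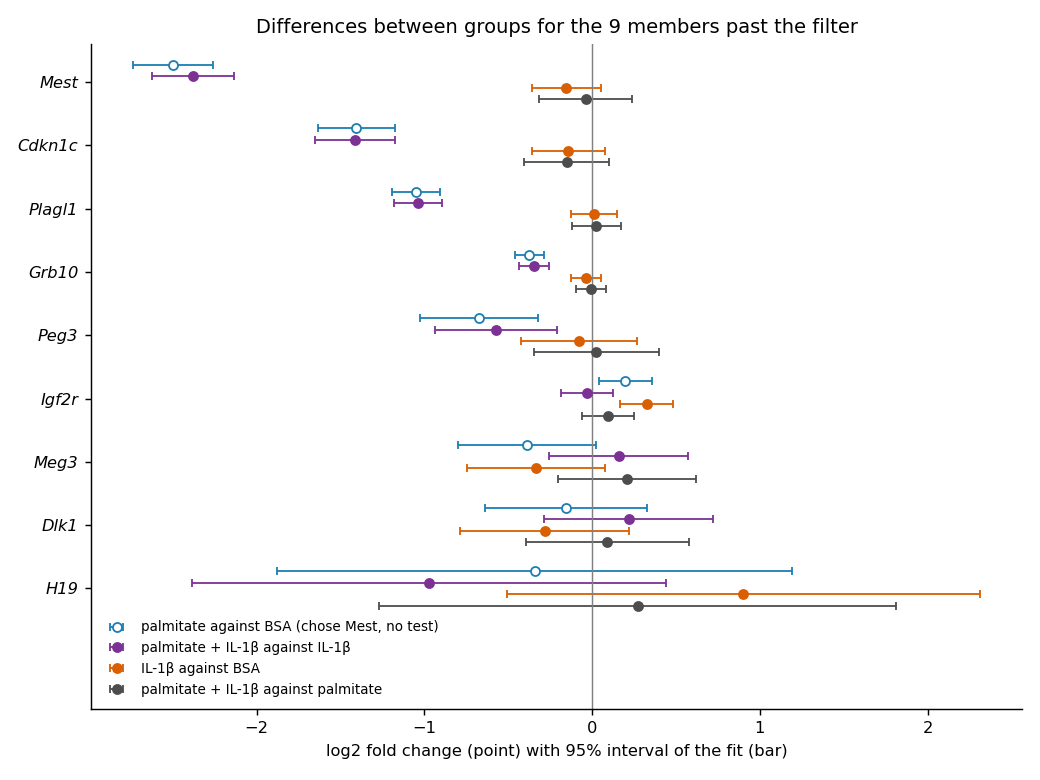
Log2 fold changes of the 9 members past the filter, with 95% intervals of the fit as bars; open points are palmitate against BSA, the contrast that chose Mest, and filled points the 3 other contrasts. The palmitate differences of Mest (-2.50 and -2.38), Cdkn1c (-1.41 and -1.42), Plagl1 (-1.05 and -1.04), Grb10 (-0.37 and -0.35) and Peg3 (-0.67 and -0.57) lie side by side with and without IL-1β.

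Meg3, Dlk1 and H19 varied more among libraries of a group than between groups. Meg3 (chr12:109506877-109538165, forward strand) ranged from 122 to 175 CPM in BSA, from 109.7 to 133 with IL-1β, from 90.1 to 136 with palmitate and from 87.8 to 159 with palmitate + IL-1β. Palmitate added to IL-1β gave a log2 fold change of 0.16 (95% interval -0.25 to 0.57, edgeR adjusted p = 0.571). Dlk1, its neighbour on the same chromosome, ranged from 0.829 to 1.75 CPM over all 16 libraries, with a log2 fold change of 0.22 in that contrast (95% interval -0.29 to 0.72, adjusted p = 0.536).

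H19 (chr7:142129262-142133957, reverse strand) was at 0.562, 0.420, 0.267 and 0.350 CPM in BSA. With IL-1β it was at 0.123, 2.27, 0.317 and 0.373 CPM, so that replicate 6 alone stood far above the rest. Its fold change of 0.90 for IL-1β against BSA (edgeR adjusted p = 0.422) became -0.57 without that library, and the -0.97 for palmitate added to IL-1β (adjusted p = 0.285) became 0.50. With palmitate H19 was at 0.164 to 0.375 CPM and with palmitate + IL-1β at 0.166 to 0.579 CPM. Igf2 had 1, 4, 1 and 2 counts in BSA, 0, 1, 4 and 0 with IL-1β, 0, 0, 0 and 1 with palmitate, and 0, 1, 0 and 0 with palmitate + IL-1β. Nearly all of these are at or below 3 counts, so no fold is given. Of its exon bases, 58.4% are also exons of Gm49394 on the same strand, and reads there would be left uncounted as ambiguous.

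The neighbours of the members in their imprinted clusters gave a mixed picture. Of 29 such genes, 15 passed the filter. In palmitate + IL-1β against IL-1β, 5 of them fell and 1 rose, where 16.1% of all tested genes fell and 18.9% rose. Their median log2 fold change was -0.21, and that over all tested genes 0.01. Dio3, which encodes the deiodinase that inactivates thyroid hormone and lies in the Dlk1 and Meg3 cluster, fell most: it was at 4.68 ± 0.63 CPM in BSA, 3.88 ± 0.37 with IL-1β, 1.96 ± 0.32 with palmitate and 1.57 ± 0.30 with palmitate + IL-1β (SD, n = 4), a log2 fold change of -1.31 (edgeR adjusted p = 5.49e-08). The non-coding RNAs of that cluster differed among themselves: Rian fell (-0.16, adjusted p = 0.0371), while Mirg (-0.26, adjusted p = 0.391) and Meg3 did not pass. Rtl1 (-0.59, adjusted p = 0.204) and Begain (0.07, adjusted p = 0.871) did not pass either.

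Beside Grb10, the actin nucleator gene Cobl fell (-0.55, edgeR adjusted p = 3.35e-06). In the Cdkn1c cluster, the tetraspanin gene Cd81 fell (-0.21, adjusted p = 0.00256), the histone chaperone gene Nap1l4 rose (0.31, adjusted p = 1.35e-05), and Kcnq1ot1, the non-coding RNA known to silence Cdkn1c on the paternal copy, was at 0.09 (adjusted p = 0.726). Osbpl5 (-0.01), Tssc4 (-0.16), Slc22a18 (-0.53) and Tspan32 (-0.86) did not pass, and neither did Airn (-0.02) beside Igf2r. Genes next to a member that fell thus went down, up or neither. With IL-1β alone, Mirg was the neighbour that fell, by a log2 fold change of -0.71 (from 4.64 ± 1.10 to 2.86 ± 0.425 CPM, edgeR adjusted p = 0.0201), while Meg3 in the same cluster was at -0.34 (95% interval -0.75 to 0.08, adjusted p = 0.286). That call was lost, at adjusted p of 0.0524 to 0.0753, when BSA replicate 1 or 2 or IL-1β replicate 5 or 7 was left out.

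Imprinted genes elsewhere in the genome showed no common direction. Of 31, 25 were tested, and 5 fell and 3 rose in palmitate + IL-1β against IL-1β, close to the shares over all tested genes (16.1% lower, 18.9% higher). Their median log2 fold change was -0.003. Peg13, a non-coding RNA, fell (-0.50, edgeR adjusted p = 5.33e-06), the capsid-like gene Peg10 fell (-0.73, adjusted p = 0.000133) and the lipid flippase gene Atp10a rose (0.46, adjusted p = 4.62e-05). The largest fall was that of Slc38a4 (-1.27, adjusted p = 0.000972), more than that of the member Plagl1 (-1.04). It had 22 to 36 counts a library with IL-1β and 12 to 17 with palmitate + IL-1β. The other 17 did not pass.

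The pathway that several members feed, that of the insulin-like growth factors and insulin, held genes called in both directions. Of 24 genes, 23 were tested, and 6 rose and 7 fell when palmitate was added to IL-1β, where 18.9% of all tested genes rose and 16.1% fell. Pik3r1, the regulatory subunit of PI3 kinase, rose from 242.5 ± 9.4 to 439.6 ± 21.3 CPM (log2 fold change 0.86, edgeR adjusted p = 1.14e-16). Igf1, a growth factor with ample counts in these cells, fell from 336 ± 20.0 to 207 ± 11.3 CPM (-0.70, edgeR adjusted p = 8.63e-13). Igf2bp2, an RNA-binding protein named for the Igf2 message, rose (0.54, adjusted p = 2.88e-12). The ligand Igf1 and the adaptor Grb10, which damps the signal of its receptor, were thus both lower with palmitate. The receptor Igf1r was at -0.13 (95% interval -0.34 to 0.08, adjusted p = 0.335). IL-1β alone raised 4 and lowered 2 of the 23, where 10.1% of all tested genes rose and 4.97% fell.

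Of 9 relatives of the members, 7 were tested, and in the same contrast 4 fell and 2 rose, beside 16.1% and 18.9% of all tested genes. Cdkn1b, which encodes p27, the relative of Cdkn1c, fell from 53.2 ± 2.22 to 37.4 ± 0.952 CPM (-0.51, edgeR adjusted p = 5.44e-11), and M6pr, the smaller mannose 6-phosphate receptor beside Igf2r, rose (0.30, adjusted p = 4.53e-07). Among 16 genes that keep or erase imprints, the Tet genes being of the second kind, 14 were tested. Of these, 2 rose and 1 fell, and the changes were small. Setdb1 (0.15, edgeR adjusted p = 0.00836) and Dnmt3a (0.17, adjusted p = 0.0329), both writers of silencing marks, rose. Uhrf1, which brings Dnmt1 to copied DNA, fell (-0.22, adjusted p = 0.00563). Zfp57 (0.12, adjusted p = 0.358) and Trim28 (-0.07, adjusted p = 0.233), which guard imprints in the embryo, did not pass.

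**Figure D5:**
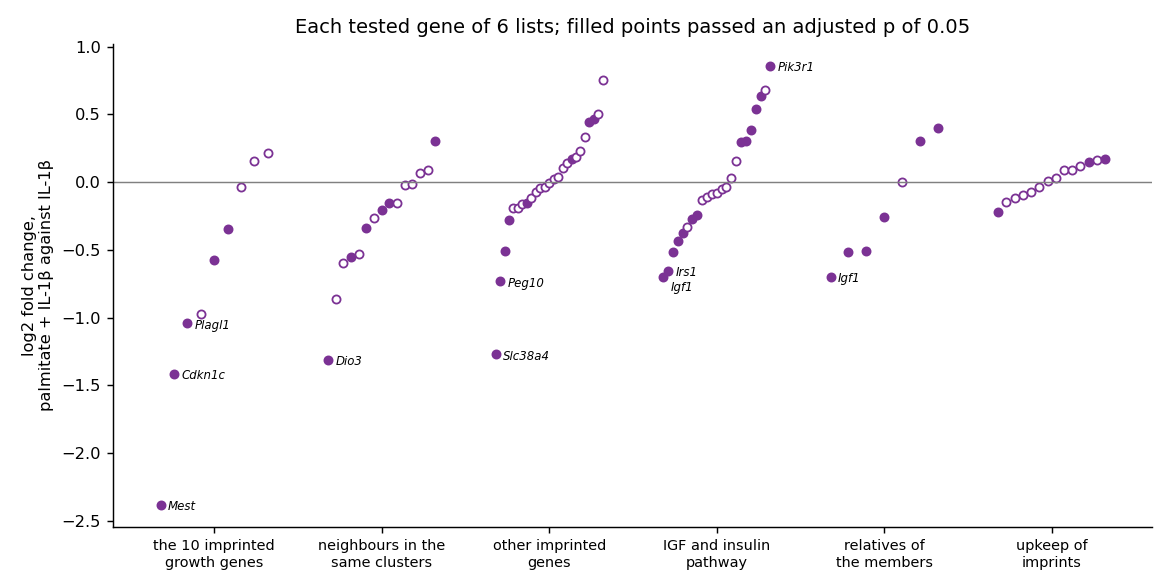
Log2 fold change of each tested gene in palmitate + IL-1β against IL-1β, in 6 lists; each point is a gene and filled points passed an adjusted p of 0.05. Mest (-2.38), Cdkn1c (-1.42) and Plagl1 (-1.04) lie lowest among the members, Dio3 (-1.31) among their neighbours, and the IGF and insulin pathway spreads from Igf1 (-0.70) to Pik3r1 (0.86).

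The genes whose pattern over the 16 libraries was most like that of Mest were sought among the 11826 genes with an average log2 CPM of at least 1, by Pearson's r of log2 CPM, given as a description. They were Tcf12 (r = 0.991), Zfp521 (0.991), Cped1 (0.989), Htra3 (0.989) and Tox (0.989). The most opposite were Ifi211 (-0.991), Dhx40 (-0.990), Cd82 (-0.988), Ifi205 (-0.987) and Gas7 (-0.986). The libraries formed 2 sets, with and without palmitate, so these values mostly give the step between them: within the 8 libraries without palmitate r with Tcf12 was 0.513, and within the 8 with palmitate it was 0.629. Zfp521, a zinc finger factor, went from 167 ± 5.50 CPM in BSA to 89.4 ± 2.36 with palmitate, and Ifi205, an interferon-induced gene, from 1.28 ± 0.250 to 14.1 ± 1.25 CPM (SD, n = 4).

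Other members were not the nearest to Mest in this order. Grb10 was at rank 115 (r = 0.964), Plagl1 at 144 (0.959), Cdkn1c at 146 (0.959) and Peg3 at 1578 (0.760), while Meg3 (0.272) and Igf2r (-0.289) lay in the middle. Within the 8 libraries without palmitate, r with Mest was 0.796 for Meg3, 0.423 for Cdkn1c, 0.247 for Plagl1, 0.247 for Grb10, 0.241 for Peg3 and -0.748 for Igf2r. Within the 8 with palmitate it was 0.469 for Grb10, 0.14 for Meg3, 0.074 for Cdkn1c, -0.097 for Igf2r, -0.249 for Peg3 and -0.45 for Plagl1. The r over all 16 libraries thus mostly gives the step with palmitate for Grb10, Plagl1, Cdkn1c and Peg3 too.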

How the data were processed

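Bulk RNA-seq of mGF gave 16 libraries, 4 per group, and groups were taken from the labels. The authors used bcl2fastq2, Trimmomatic 0.39 for trimming, STAR 2.7.10a for alignment to GRCm39, and HTSeq 2.0.9 to count reads in GENCODE genes, and the deposited values are raw counts. The kit is given as one for stranded total RNA in the labels and as an oligo(dT)-primed one in the methods, so the share of RNA without a poly(A) tail is not known. The 5 summary rows that name no gene (18.3% to 21.4% of a library) stayed out.

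Counts were tested with edgeR 4.0.16 in R 4.3.3: TMM, filterByExpr (minimum count 10, minimum total 15), and glmQLFit (robust) and glmQLFTest on all 16 libraries in 1 fit with a mean per group, no covariate and 12 residual degrees of freedom. The biological coefficient of variation was 6.08%. P-values were adjusted by Benjamini-Hochberg over all 16306 genes, and a gene was called at an adjusted p under 0.05. For a single gene, an exact two-sided permutation test compared 4 with 4 libraries. The fit was tested on simulated data. Alternatives were DESeq2 1.42.0, upper-quartile scaling, no expression filter, the 8 libraries compared, each library left out, unscaled library sizes and transcript length.

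The members and lists were chosen with earlier results of these data known. The lists were markers of cell types, neighbours in the members' clusters, imprinted genes elsewhere, and the IGF and insulin pathway. Further lists were relatives of the members, genes that keep or erase imprints, and hosted microRNAs. Named are the 10 members, Copg2, every tested cluster neighbour, and the 5 genes most and least like Mest. The 3 called genes of smallest p per list in palmitate + IL-1β against IL-1β are named too. Others (Igf1r, Zfp57, Trim28, Slc38a4, some markers, and genes of the lists that rose with IL-1β) were named after their values were seen. Positions, exon lengths, shared exon bases and promoters are those of GRCm39 with GENCODE vM39, and microRNA sequences those of RefSeq. The authors counted reads on an earlier GENCODE release, so exon lengths and shared bases may have differed there. Of the 56941 gene identifiers, 56323 were found in vM39. The promoter of 1 member is not reported here.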

Additional observations from a re-analysis of the deposited data

Results flagged for a closer look

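Among 40 groups of 4 libraries, 10 genes in 4 groups each, 8 held a library that stood apart. Its distance to its nearest neighbour was over 0.829 of the range of the group. For normally spread values chance gives about 1 in 20. That rate does not hold for groups of few counts, such as those of Igf2, so the 8 are not read as an excess. H19 was at 2.27 CPM in IL-1β replicate 6, and the next library was at 0.373 CPM. Dlk1 was at 1.65 CPM in IL-1β replicate 7, above 0.937 CPM in the next. Cdkn1c was at 24.8 CPM in BSA replicate 4 (next 23.1), and Plagl1 at 66.7 CPM in BSA replicate 2 (next 62.0) and at 37.9 CPM in palmitate + IL-1β replicate 16 (next 29.4). Grb10 was at 509 CPM in BSA replicate 3 (next 455). Igf2 stood out at 0.0411 CPM in palmitate replicate 12 and at 0.0331 CPM in palmitate + IL-1β replicate 14, each a single count where the other libraries of the group had 0.

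The effect of palmitate differed with IL-1β for 1 named gene of the IGF and insulin pathway, Pik3r1. It also did for 1 of the genes that keep or erase imprints, Uhrf1. Both are by the interaction term of the edgeR fit. Over all 16306 tested genes this term was called for 324, of which 298 were negative. It includes the contrast of palmitate against BSA, on which Mest was picked. For Pik3r1 the interaction was -0.41 on the log2 scale (adjusted p = 2.49e-05): palmitate raised it by 1.27 over BSA and by 0.86 over IL-1β. For Uhrf1 it was -0.485 (adjusted p = 0.000504), with 0.27 over BSA and -0.22 over IL-1β.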

How the results depend on the processing

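No paired analysis was possible because the library numbers, 1 to 16, are not shared between groups. The 5 falls in palmitate + IL-1β against IL-1β and the rise of Igf2r with IL-1β kept their direction under every alternative run, and their calls too, except Peg3 without palmitate + IL-1β replicate 16. The numbers of members called stayed within 1.5 times under all alternatives. Upper-quartile scaling turned Plagl1 with IL-1β against BSA to -0.033, and testing without an expression filter turned Peg3 in palmitate + IL-1β against palmitate to -0.006, all on the log2 scale and not called.

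Leaving out 1 library at a time turned the direction of fold changes that had not been called. In palmitate + IL-1β against IL-1β, H19 ranged from -1.31 to 0.495 and Igf2r from -0.095 to 0.032. In IL-1β against BSA, H19 ranged from -0.565 to 1.24, Plagl1 from -0.018 to 0.048 and Grb10 from -0.061 to 0.01. In palmitate + IL-1β against palmitate, Mest ranged from -0.186 to 0.069, Peg3 from -0.121 to 0.222, Dlk1 from -0.078 to 0.226, Plagl1 from -0.083 to 0.069 and Grb10 from -0.024 to 0.017. The turns of H19 came without IL-1β replicate 6; the causes of the others were not tested. Under upper-quartile scaling 5 cluster neighbours, not 1, were called with IL-1β, and without palmitate + IL-1β replicate 16 there were 2. Of 40 group levels on unscaled library sizes, 0 moved by more than 1 SD. Depth limits H19, Dlk1, Mir335 and Igf2, which had few counts in most libraries.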

Other observations

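Of the 14 tested genes that keep or erase imprints, 4 rose in IL-1β against BSA and 0 fell. Of all tested genes 10.1% rose and 4.97% fell. The 4 were Hells (log2 fold change 0.33, edgeR adjusted p = 5.08e-05), Uhrf1 (0.32, adjusted p = 0.000305), Dnmt1 (0.18, adjusted p = 0.0283) and Smchd1 (0.16, adjusted p = 0.00908), named after their values were seen. Hells remodels chromatin for DNA methylation, Uhrf1 and Dnmt1 copy methylation after replication, and Smchd1 is a chromatin protein of silenced clusters. Under upper-quartile scaling the count was 2 in place of 4.

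In the IGF and insulin list, IL-1β raised 4 of 23 tested genes, beside 10.1% of all tested genes. Among them were Stc2 (0.53, edgeR adjusted p = 7.47e-05), a secreted glycoprotein that inhibits the protease Pappa, and Insr, the insulin receptor (0.22, adjusted p = 0.0423). Stc2 also rose when palmitate was added to IL-1β (0.64, adjusted p = 2.71e-07). It was at 7.91 ± 0.31 CPM in BSA, 11.4 ± 0.69 with IL-1β, 11.0 ± 1.1 with palmitate and 17.8 ± 2.3 with palmitate + IL-1β (SD, n = 4).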
